A study of Mus musculus with 32 samples.

Results

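The ErbB and HGF-MET growth factor axes were followed through 10 genes. These were the receptors Egfr, Erbb2 and Erbb3, the EGFR ligands Areg, Ereg, Hbegf and Tgfa, the neuregulin Nrg1, and Hgf with its receptor Met. The mouse genes were taken by symbol from the 39676 genes of the counts table, where 9 of the 10 had a row. Hbegf was not analysed here. On GRCm38 the receptor genes lie at chr11:16752203-16918158 (Egfr), chr11:98412470-98437716 (Erbb2) and chr10:128567523-128589652 (Erbb3), the ligand genes at chr5:91139599-91148432 (Areg), chr5:91074622-91093646 (Ereg), chr6:86195223-86275719 (Tgfa), chr8:31814551-32884029 (Nrg1) and chr5:16553495-16620152 (Hgf), and Met at chr6:17463800-17573980.

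RNA was sequenced from whole untreated tumors of 32 female mice that were 8 to 10 weeks old, with 8 mice in each of 4 groups. In the AB1 IPL and AB1 SC groups, 500000 AB1 cells were placed in the pleural space (intrapleural, IPL) or under the skin of the flank (subcutaneous, SC) of BALB/c mice. In the AE17 IPL and AE17 SC groups, 1000000 AE17 cells were placed at the same sites in C57BL/6 mice. Every tumor was collected on day 10, and RNA was extracted after the lungs and other adjoining tissue had been cut away. Both AB1 and AE17 cells come from mouse mesothelioma, and each model rests on 1 cell line. The cell line, the mouse strain and the number of cells changed together between the models and cannot be told apart. Whole tumors hold host cells as well as mesothelioma cells, so that fewer cells of a type and less RNA per cell cannot be told apart in any value below.

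ErbB receptors are tyrosine kinases that pair when a ligand binds and then switch on the ERK and AKT pathways. EGFR binds amphiregulin (Areg), epiregulin (Ereg) and transforming growth factor alpha (Tgfa), which are cut from the cell surface by ADAM proteases. ERBB3 binds the neuregulins and signals mainly through partners such as ERBB2, which has no known ligand of its own. MET is the receptor of hepatocyte growth factor (Hgf), a factor made largely by mesenchymal cells that drives migration and invasion. Both EGFR and MET are found on mesothelioma cells.

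Total counts per tumor lay between 15432258 and 20649645. The detection floor was set at 3 counts, or between 0.139 and 0.19 CPM depending on the tumor. CPM stands for counts per 1000000 counts, scaled with TMM factors over all 32 tumors. AB1 IPL tumors were sequenced in lane 3, AB1 SC tumors in lanes 2 and 3, AE17 IPL tumors in lanes 1 and 2, and AE17 SC tumors in lane 1, so that no lane held both models at the same site. AB1 IPL 2, AB1 IPL 4 and AE17 IPL 5 were least like their own groups (mean Pearson r of log2 CPM 0.952, 0.954 and 0.963, against 0.966 or more in the other 29 tumors). Of 10 mesothelial markers 6 had a row. The membrane mucin Pdpn lay between 74.1 and 226 CPM in the 32 tumors, whereas Upk3b and Lrrn4, markers of normal mesothelium, had no more than 3 counts in any SC tumor. AB1 IPL 2 had the highest levels of both, 31.4 CPM for Upk3b and 23.9 CPM for Lrrn4. The remaining markers were low too, with group medians between 0.0898 and 2.1 CPM for Wt1, between 0.0543 and 4.46 CPM for Krt19 and between 0 and 0.782 CPM for Calb2.

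Met was the most abundant of the 9 genes in AE17 tumors, and Met and Erbb2 led in AB1 tumors. Levels were compared between genes as mean CPM per kb of annotated exon. Met reached 849 CPM per kb in AE17 IPL and 748 CPM per kb in AE17 SC tumors, which placed it 40th and 56th among 39495 genes with an annotated length. In AB1 tumors it reached 9.3 CPM per kb at the IPL site and 12 CPM per kb at the SC site. Erbb2 stood beside it in AB1 tumors, at 10.1 and 8.76 CPM per kb. Egfr lay between 2.45 and 3.12 CPM per kb in the 4 groups, and Erbb3 was the lowest receptor, between 0.547 and 0.926 CPM per kb.

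Among Areg, Ereg and Tgfa, the EGFR ligands compared per kb, the highest differed between the models. In AE17 tumors it was Areg, at 15.9 CPM per kb (IPL) and 14.8 CPM per kb (SC), ahead of Ereg at 5.05 and 6.7 CPM per kb. In AB1 tumors it was Ereg, at 3.11 CPM per kb (IPL) and 4.78 CPM per kb (SC), ahead of Areg at 1.21 and 1.5 CPM per kb. With Nrg1 added to the 3, it came second in AB1 tumors, at 1.8 and 2.22 CPM per kb. It came last of these 4 in AE17 tumors, at 0.43 and 0.375 CPM per kb. Tgfa was last in AB1 tumors, at 0.0734 and 0.0693 CPM per kb.

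**Figure D1:**
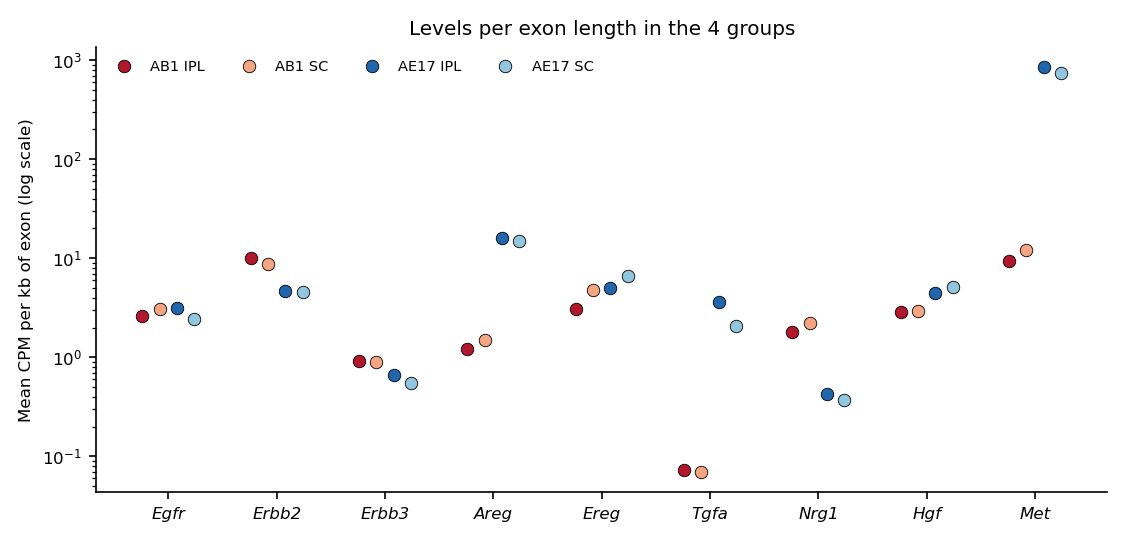
Mean level of each gene per exon length (vertical axis, CPM per kb, log scale) in AB1 and AE17 tumors at the IPL and SC sites, with 1 point per group of 8 tumors. Met in AE17 tumors stands at 849 and 748 CPM per kb, and Areg and Tgfa are higher in AE17 than in AB1 tumors while Nrg1 is lower.

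Most of the 9 genes differed between the models. In SC tumors 7 of 9 passed an adjusted p of 0.05 in edgeR's quasi-likelihood test, beside 58.3% of the 15681 genes tested. Erbb2, Erbb3 and Nrg1 were higher in AB1, as were 28.6% of all genes tested, and Areg, Tgfa, Hgf and Met were higher in AE17, as were 29.7%. In IPL tumors 8 of 9 passed, beside 63.4% of all genes tested, and these were the same 7 genes in the same directions plus Ereg, higher in AE17. Of all genes tested, 31.6% were called higher in AB1 IPL and 31.8% in AE17 IPL tumors. The counts of genes that passed are thus not far from what most of the transcriptome showed. The sizes were larger: the median absolute log2 fold change of the 9 genes was 0.95 in SC and 1.10 in IPL tumors, against 0.38 and 0.43 over all genes tested. The ranges of the 2 models did not overlap for 7 of the 9 genes in SC tumors, beside 30.9% of all genes tested, and for 5 of the 9 in IPL tumors, beside 28.1%.

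Met showed the largest difference. In AE17 IPL tumors it lay between 4521 and 8392 CPM (median 6719, mean 6518 ± 1238 SD, n = 8), and in AE17 SC tumors between 4802 and 6827 CPM (median 5774, mean 5747 ± 622 SD, n = 8). In AB1 IPL tumors it lay between 24.2 and 94.0 CPM (median 76.3, mean 71.4 ± 23.2 SD, n = 8), and in AB1 SC tumors between 74.8 and 116 CPM (median 90.9, mean 92.2 ± 12.5 SD, n = 8). The AE17 groups overlapped each other, as did the AB1 groups, and every AE17 tumor was above every AB1 tumor. Met alone took between 0.45% and 0.812% of all counts in AE17 tumors. It was higher in AE17 by 5.96 ± 0.20 on the log2 scale (SE), or 62.3-fold, in SC tumors (adjusted p = 1.84e-21) and by 6.51 ± 0.21, or 91.3-fold, in IPL tumors (adjusted p = 2.91e-22). Only 1.1% of the genes tested differed by as much in either direction in SC tumors, and 0.619% in IPL tumors.

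The genes that flank Met on chromosome 6 were also higher in AE17 tumors. Met lies on the plus strand at chr6:17463800-17573980 (GRCm38), and its neighbours were examined after its own values had been seen. All 11 other genes tested within 500 kb of its start were higher in AE17 SC tumors (edgeR, adjusted p under 0.05), with a median log2 fold change of 3.85 in SC and 3.99 in IPL tumors. Within the wider window of 1500 kb to each side, 20 genes were tested, Met included. Of these, 13 were at least 8-fold higher in AE17 SC than in AB1 SC tumors by the fitted value, as were 490 of the 15681 genes tested (3.12%).

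These 13 genes ran from D830026I12Rik to Cttnbp2, over 1317 kb (chr6:17197751-18514843, GRCm38). Cav1, at 4.7-fold, was the only gene tested inside that stretch that was below 8-fold. Capza2, which encodes an actin capping protein and starts 172.4 kb downstream of Met, had a median of 7767 CPM in AE17 SC tumors and 385 CPM in AB1 SC tumors. Cav2, a caveolin gene 182.6 kb upstream, had medians of 1976 and 137 CPM. Cftr, the chloride channel of epithelia and 706.9 kb downstream, had a median of 75.1 CPM in AE17 SC tumors and at most 0.177 CPM in any AB1 tumor. For 7 of the 13 the AB1 median was at or below 0.19 CPM at 1 or both sites, so that their fitted folds depend on the prior count.

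Of the 20 genes, 17 were called higher in AE17 in SC tumors and 19 in IPL tumors. Those called in SC tumors started between 398.8 kb upstream of Met (Gm15473) and 1051.0 kb downstream (Cttnbp2). Gm20186, 1384.4 kb downstream, was higher in AE17 by 0.35 in SC tumors (adjusted p = 0.162) and by 0.94 in IPL tumors (adjusted p = 0.000271). No gene was tested further upstream than Tfec. Tes, 398.7 kb upstream of Met, was higher in AE17 SC tumors by 1.71 ± 0.10 on the log2 scale. Tfec, 565.4 kb upstream, was lower in AE17 SC tumors, with a log2 fold change (AE17 minus AB1) of -1.28 (adjusted p = 1.02e-05), and higher in AE17 IPL tumors, at 0.65 (adjusted p = 0.0118). Lsm8, 1384.8 kb downstream, was lower in AE17 at both sites, with a log2 fold change of -0.42 in SC tumors (adjusted p = 7.71e-06) and -0.31 in IPL tumors (adjusted p = 0.000316). Together the 13 genes took between 1.11% and 2.05% of the counts of an AE17 tumor and between 0.0245% and 0.0698% of those of an AB1 tumor. Around the other 8 genes followed here, the median log2 fold change of the neighbours within 500 kb in SC tumors lay between -0.27 and 0.12. DNA was not measured in these samples, and the number of copies of the region was not tested.

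**Figure D2:**
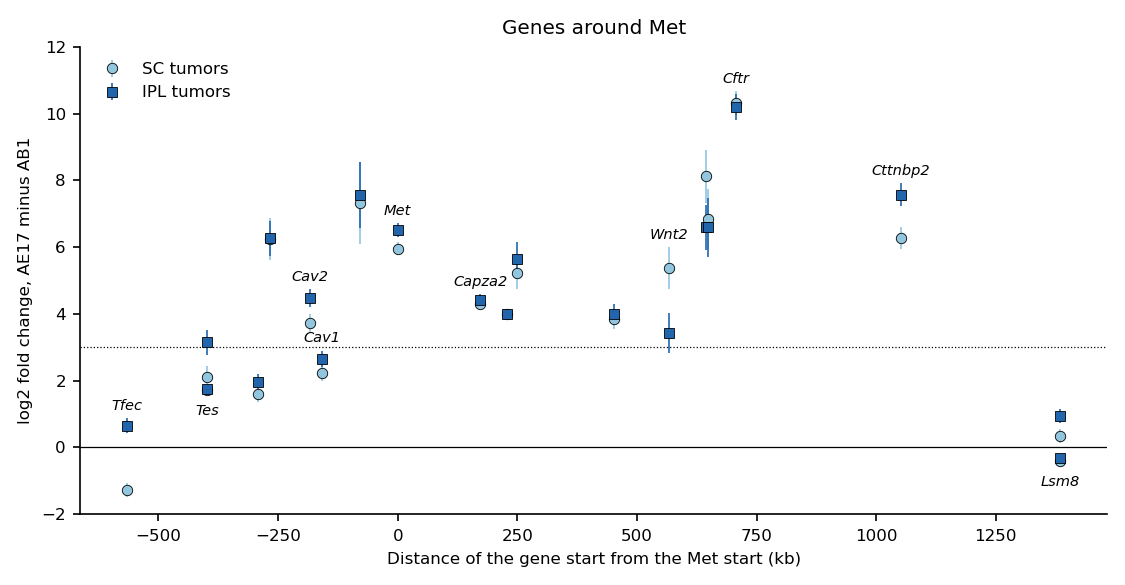
Log2 fold change between AE17 and AB1 (vertical axis, AE17 minus AB1, ± SE) of the 20 genes tested around Met, against the distance of each gene's start from the start of Met (horizontal axis, kb), in SC tumors (circles) and IPL tumors (squares). The dotted line marks 8-fold, and 13 genes lie above it in SC tumors, between 266.0 kb upstream and 1051.0 kb downstream of Met.

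The 250 bases before the starts of Areg and Tgfa, and the 93 bases before that of Met, are shown because these are the genes with the largest differences between the models. They are reference sequence of the C57BL/6J strain from RefSeq (GRCm38.p6), on the plus strand, 5′ to 3′, at chr5:91139349-91139598 for Areg, chr6:86194972-86195221 for Tgfa and chr6:17463707-17463799 for Met. Both strands were searched for 4 motifs, and capitals mark the matches. The cyclic AMP response element was searched as TGACGTCA. The AP-1 site was searched as TGACTCA. The GC box was searched as GGGCGG. The TATA box was searched as TATAAA.
Areg: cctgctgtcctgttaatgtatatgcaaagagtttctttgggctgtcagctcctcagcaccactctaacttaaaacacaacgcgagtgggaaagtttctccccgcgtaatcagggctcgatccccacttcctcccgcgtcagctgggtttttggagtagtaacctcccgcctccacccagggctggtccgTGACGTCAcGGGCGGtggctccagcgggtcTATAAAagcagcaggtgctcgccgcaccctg
Tgfa: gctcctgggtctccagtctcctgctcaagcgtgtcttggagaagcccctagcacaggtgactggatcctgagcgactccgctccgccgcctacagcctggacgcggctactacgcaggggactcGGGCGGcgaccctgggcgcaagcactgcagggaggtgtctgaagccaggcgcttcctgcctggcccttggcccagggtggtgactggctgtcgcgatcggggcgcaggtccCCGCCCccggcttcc
Met: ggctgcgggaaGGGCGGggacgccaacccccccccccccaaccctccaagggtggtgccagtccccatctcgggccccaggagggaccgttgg
The Areg window held a cyclic AMP response element whose first base lay 61 bases before the start, next to a GC box, and a TATA box 31 bases before it. Among 32851 promoter windows of 250 bases, 1.55% held the first motif, 32.7% a GC box and 12.4% the TATA letters. The Tgfa window held 2 GC boxes and the shorter Met window 1. None of the 3 windows held the AP-1 letters, which 4.46% of all windows did. Of the 9 genes, 6 had a promoter entry in the reference table. Windows of the mouse strain BALB/c, in which AB1 tumors grew, were not analysed here.

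Areg, which encodes amphiregulin, lay between 10.4 and 34.6 CPM in AE17 IPL tumors (median 17.2, mean 19.4 ± 7.13 SD, n = 8) and between 14.4 and 21.7 CPM in AE17 SC tumors (median 17.8, mean 18 ± 2.32 SD, n = 8). In AB1 tumors it lay between 0.662 and 2.27 CPM at the IPL site (median 1.35, mean 1.48 ± 0.542 SD, n = 8) and between 1.14 and 2.67 CPM at the SC site (median 1.79, mean 1.82 ± 0.532 SD, n = 8). The lowest AE17 tumor was above the highest AB1 tumor. Areg was higher in AE17 by 3.30 ± 0.22 on the log2 scale, or 9.83-fold, in SC tumors (adjusted p = 3.05e-14) and by 3.71 ± 0.22, or 13.1-fold, in IPL tumors (adjusted p = 2.51e-15).

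The 11 other genes tested within 500 kb of the start of Areg had a median log2 fold change of -0.08 (AE17 minus AB1, SC tumors), and none of them was 8-fold higher in AE17. Ereg, which encodes epiregulin and starts 65.0 kb upstream of Areg on chromosome 5, is among these neighbours, as is the betacellulin gene Btc 263.4 kb downstream, with a log2 fold change (AE17 minus AB1) of -0.08 in SC tumors (adjusted p = 0.852) and 0.93 in IPL tumors (adjusted p = 0.0206).

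Ereg levels overlapped between the models. They lay between 4.42 and 21.3 CPM in AB1 IPL tumors (median 12.4), between 15.6 and 24.9 CPM in AB1 SC tumors (median 18.3), between 11.6 and 27.9 CPM in AE17 IPL tumors (median 20.8) and between 15.9 and 47.2 CPM in AE17 SC tumors (median 26.2). The order of the means was AE17 SC, AE17 IPL, AB1 SC and AB1 IPL, and no 2 neighbours in that order were separate. In IPL tumors Ereg was higher in AE17 by 0.70 ± 0.23 on the log2 scale (adjusted p = 0.00956). In SC tumors the difference was 0.49 ± 0.23 (adjusted p = 0.0692). The SC difference was called by voom (adjusted p = 0.0114), with only the 16 mice compared (adjusted p = 0.0224) and without AB1 IPL 2, AB1 IPL 4 and AE17 IPL 5 (adjusted p = 0.0238), and not in the other 5 alternatives. With the sequencing lane in the fit the IPL log2 fold change (AB1 minus AE17) was -0.39 and was not called (adjusted p = 0.568). The highest AE17 SC tumor, AE17 SC 6, also had the highest summed level of 6 keratinocyte markers, 28.5 CPM against 4.39 to 21.6 CPM in the other AE17 SC tumors. It had the highest fibroblast sum (20802 CPM) and skeletal muscle sum (1214 CPM) of its group as well. The part of these markers in the value of Ereg was not tested.

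Tgfa was close to the detection limit in AB1 tumors. It lay between 0 and 1.59 CPM in AB1 IPL tumors (median 0.337, mean 0.476 ± 0.516 SD, n = 8) and between 0.0603 and 0.816 CPM in AB1 SC tumors (median 0.427, mean 0.45 ± 0.27 SD, n = 8). In AE17 tumors it lay between 16.4 and 31.9 CPM at the IPL site (median 23.8, mean 23.6 ± 4.43 SD, n = 8) and between 3.7 and 23 CPM at the SC site (median 13.6, mean 13.5 ± 6.91 SD, n = 8). The models did not overlap at either site, and AB1 IPL 2, which also had the most Upk3b, was the highest AB1 tumor. Tgfa was higher in AE17 by 4.89 ± 0.47 on the log2 scale in SC tumors (adjusted p = 1.25e-10) and by 5.61 ± 0.47 in IPL tumors (adjusted p = 5.52e-12).

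Nrg1, which encodes neuregulin 1 and is a ligand of ERBB3, was the gene most strongly shifted toward AB1. It lay between 15.5 and 26 CPM in AB1 IPL tumors (median 18.2, mean 18.6 ± 3.41 SD, n = 8) and between 19.5 and 28.2 CPM in AB1 SC tumors (median 22.8, mean 23 ± 2.73 SD, n = 8). In AE17 tumors it lay between 2.84 and 7.24 CPM at the IPL site (median 4.06, mean 4.45 ± 1.32 SD, n = 8) and between 2.44 and 5.27 CPM at the SC site (median 4.13, mean 3.88 ± 0.997 SD, n = 8). Every AB1 tumor was above every AE17 tumor. The log2 fold change (AB1 minus AE17) was 2.56 ± 0.16 in SC tumors, or 5.91-fold (adjusted p = 6.39e-15), and 2.06 ± 0.16 in IPL tumors, or 4.18-fold (adjusted p = 6.76e-13).

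The receptors that neuregulin signals through were higher in AB1 as well, by less. Erbb2 lay between 46.6 and 69.3 CPM in AB1 IPL tumors (median 50.7) and between 42.0 and 49.3 CPM in AB1 SC tumors (median 45.0). It lay between 22.8 and 27 CPM in AE17 IPL tumors (median 24.2) and between 19.6 and 27.6 CPM in AE17 SC tumors (median 23.8). The models were thus separate, and the log2 fold change (AB1 minus AE17) was 0.95 ± 0.07 in SC tumors (adjusted p = 5.89e-13) and 1.10 ± 0.07 in IPL tumors (adjusted p = 1.41e-14). Erbb2 overlaps Mien1 in the annotation, as Egfr does Egfros, Ereg Gm42532, Tgfa Gm43917 and Hgf Gm42975 and Gm43489. The strand setting of the counting is not given in the sources used here, so reads in these overlaps may belong to either gene.

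Erbb3 lay between 4.3 and 7.36 CPM in AB1 IPL tumors (median 5.28), between 4.42 and 8.2 CPM in AB1 SC tumors (median 5.04), between 2.97 and 5.61 CPM in AE17 IPL tumors (median 3.92) and between 1.7 and 4.19 CPM in AE17 SC tumors (median 3.37). The SC ranges of the models were separate and the IPL ranges overlapped. Erbb3 was higher in AB1, with a log2 fold change of 0.72 ± 0.16 in SC tumors (adjusted p = 0.000266) and 0.50 ± 0.16 in IPL tumors (adjusted p = 0.00735). With the lane in the fit the IPL log2 fold change was 0.58 and was not called (adjusted p = 0.186).

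Egfr did not pass the test in either comparison of the models. It lay between 19.7 and 38.7 CPM in AB1 IPL tumors (median 30.1), between 27.5 and 47.4 CPM in AB1 SC tumors (median 31.8), between 27.6 and 40.5 CPM in AE17 IPL tumors (median 35.8) and between 12.9 and 37.4 CPM in AE17 SC tumors (median 27.5). All 4 groups overlapped, and their order by the mean was AE17 IPL, AB1 SC, AB1 IPL and AE17 SC. The log2 fold change (AB1 minus AE17) was 0.33 ± 0.15 in SC tumors (adjusted p = 0.0624) and -0.24 ± 0.15 in IPL tumors (adjusted p = 0.162). The SC difference was called in 6 of 32 fits that left out 1 tumor (AB1 IPL 4, AB1 SC 1, 3 or 4, or AE17 SC 1 or 2), with edgeR's adjusted p from 0.0259 to 0.155 over the 32 fits.

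Hgf, the ligand of MET, was higher in the model that also had more Met. It lay between 5.31 and 30.9 CPM in AB1 IPL tumors (median 22.4), between 13.8 and 26.5 CPM in AB1 SC tumors (median 21.4), between 27.9 and 44.2 CPM in AE17 IPL tumors (median 30.5) and between 27.1 and 47.9 CPM in AE17 SC tumors (median 36.7). The SC groups were separate and the IPL groups overlapped. The summed level of 5 of 7 fibroblast markers ran from 12327 to 20802 CPM in AE17 SC tumors (median 14433) and from 8909 to 11779 CPM in AB1 SC tumors (median 9381). In IPL tumors its median was lower in AE17, at 13457 against 15601 CPM in AB1. The part of these markers in the Hgf values was not tested. Hgf was higher in AE17 by 0.79 ± 0.20 on the log2 scale in SC tumors (adjusted p = 0.000963) and by 0.65 ± 0.20 in IPL tumors (adjusted p = 0.00493). With the lane in the fit the IPL log2 fold change (AB1 minus AE17) was -0.77 and was not called (adjusted p = 0.136).

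**Figure D3:**
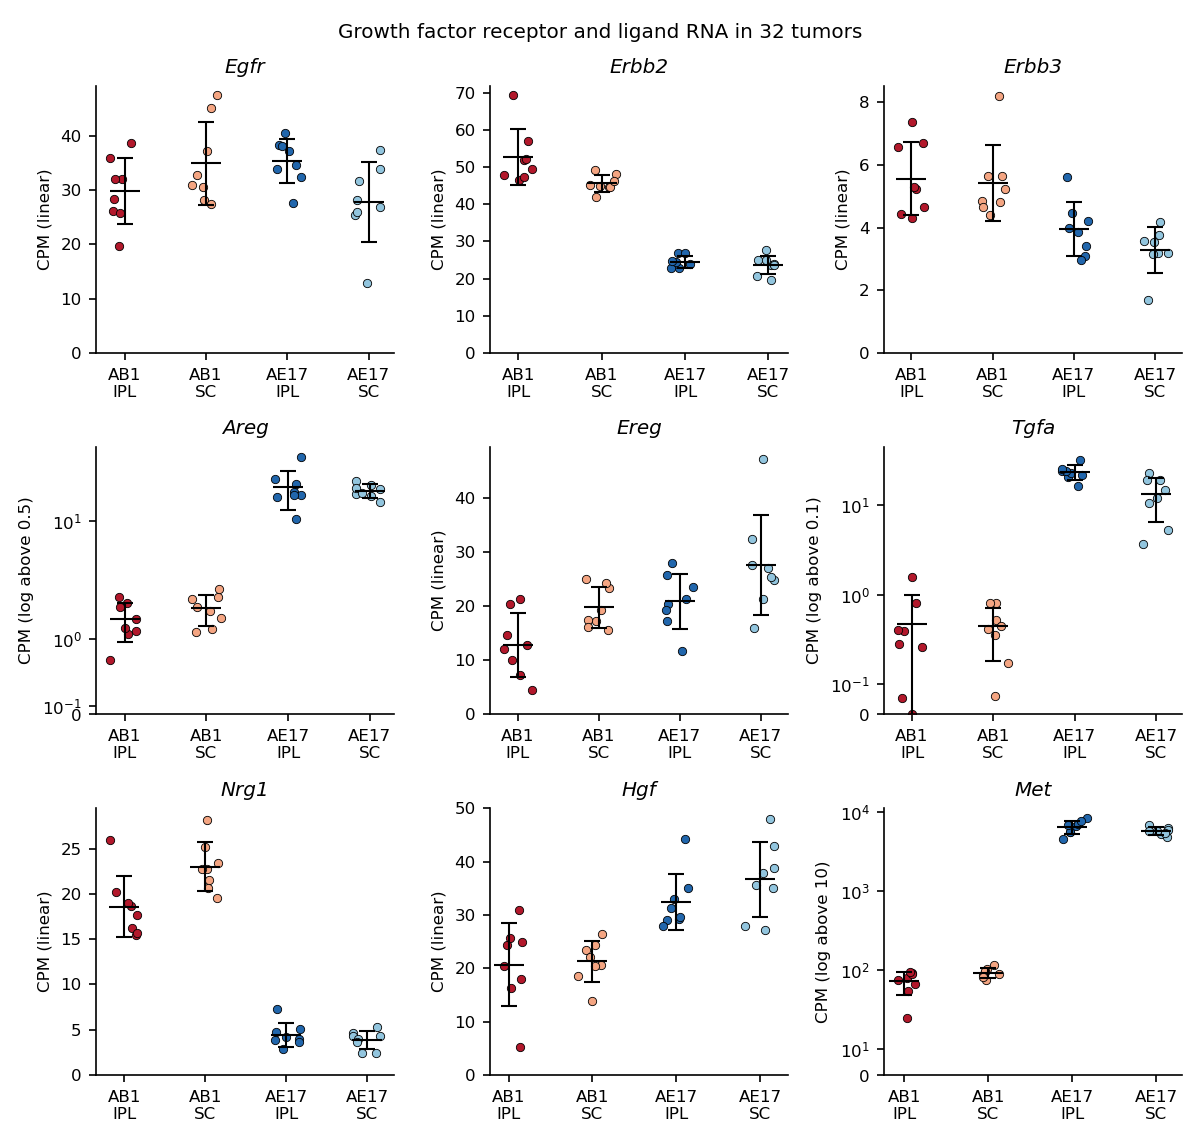
Level of the 9 genes in each of the 32 tumors (vertical axes, CPM, logarithmic above the value given on the axis for Areg, Tgfa and Met and linear for the others), with the mean and SD of each group of 8 as bars. Met, Areg and Tgfa are higher in every AE17 tumor than in any AB1 tumor, Nrg1 and Erbb2 are lower, and the 4 groups of Egfr and of Ereg overlap.

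The differences between the sites of growth were smaller, with a median absolute log2 fold change of 0.28 in AB1 (all genes tested 0.19) and 0.20 in AE17 (all genes tested 0.13). The ranges of IPL and SC tumors overlapped for all 9 genes in both models, and they were separate for only 5.03% of all genes tested in AB1 and 0.573% in AE17. In AB1 tumors 1 of the 8 genes tested passed an adjusted p of 0.05, beside 23% of the 14645 genes tested. Tgfa was left out of that test by the filter on low counts. In AE17 tumors 0 of 9 passed, beside 5.73% of the 14668 genes tested. In AE17, 2 of the 9 had an unadjusted p under 0.05 in edgeR (25.2% of all genes tested), DESeq2 called 1 (9.87%) and voom called 2 (26.8%). The median log2 fold change (IPL minus SC) of the genes tested was -0.28 in AB1 and 0.18 in AE17, against 0.0 over all genes in both models.

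The gene that passed in AB1 was Nrg1. It was lower in AB1 IPL than in AB1 SC tumors, with a log2 fold change of -0.32 ± 0.11 (adjusted p = 0.037), and 6 of the 8 IPL tumors were below every SC tumor, while 10.7% of the genes tested were called lower in IPL tumors. This call was lost in 10 of the 16 fits that left out 1 tumor (AB1 IPL 1, 2, 3, 7 or 8, or AB1 SC 1, 2, 5, 6 or 8). Over the 16 fits the log2 fold change ran from -0.40 to -0.27 and edgeR's adjusted p from 0.00414 to 0.0837. Without AB1 IPL 2, AB1 IPL 4 and AE17 IPL 5 the log2 fold change was -0.24 (adjusted p = 0.135), and Erbb2 took its place as the gene called, at 0.18 (adjusted p = 0.0224). Within lane 3, which held all 8 AB1 IPL tumors and 2 AB1 SC tumors, it was -0.36 (adjusted p = 0.488), and with the lane in the fit it was -0.33 (adjusted p = 0.356). Nrg1 in AE17 tumors differed by 0.20 ± 0.19 between the sites (adjusted p = 0.553).

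Markers of other tissues moved with the site in the AB1 tumors. The summed level of 8 of 8 skeletal muscle markers ran from 102 to 4121 CPM in AB1 IPL tumors and from 53.4 to 424 CPM in AB1 SC tumors, and no marker was near 0 in either group. The sum of 7 of 8 Schwann cell markers, a cell type that answers to neuregulin, ran from 41.1 to 65.9 CPM in AB1 IPL tumors and from 47.8 to 138 CPM in AB1 SC tumors. The sum of the 2 of 5 mast cell markers with a row ran from 1.73 to 38.9 CPM and from 47.0 to 111 CPM, and its median was also lower in AE17 IPL than in AE17 SC tumors (34.6 against 117 CPM). In AB1 IPL against AB1 SC tumors the median sums were 15601 and 9381 CPM for fibroblast markers, 44.1 and 7.95 CPM for 7 of 7 heart muscle markers, and 1148 and 1681 CPM for 4 of 6 macrophage markers. With scores of skeletal muscle, adipocyte, lung epithelium and keratinocyte markers in the fit, the log2 fold change of Nrg1 was -0.30 (adjusted p = 0.284). The part of the other markers was not tested.

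Several other genes stood near the threshold. In AB1 tumors, Ereg had a log2 fold change (IPL minus SC) of -0.64 ± 0.25 (adjusted p = 0.0703), and 6 of the 8 IPL tumors were below every SC tumor. The value was -0.28 with tissue scores in the fit (adjusted p = 0.806), -0.37 with the lane (adjusted p = 0.682) and -0.40 without AB1 IPL 2, AB1 IPL 4 and AE17 IPL 5 (adjusted p = 0.159), while edgeR called it without AB1 IPL 5 or AB1 IPL 8 (lowest adjusted p 0.0254). Erbb2 had 0.19 ± 0.08 (adjusted p = 0.0834), with all 8 IPL tumors above the SC median, 0.10 without AB1 IPL 4 (adjusted p = 0.182) and 0.23 without AB1 IPL 2 (adjusted p = 0.0312). Met had -0.39 ± 0.19 (adjusted p = 0.166), with AB1 IPL 4 at 24.2 CPM far below the next IPL tumor at 54.6 CPM. Without AB1 IPL 2, AB1 IPL 4 and AE17 IPL 5 the log2 fold change of Met was -0.15 (adjusted p = 0.258). The remaining values in AB1 were -0.24 ± 0.14 for Egfr (adjusted p = 0.235), 0.02 ± 0.15 for Erbb3 (adjusted p = 0.93), -0.32 ± 0.24 for Areg (adjusted p = 0.347) and -0.06 ± 0.24 for Hgf (adjusted p = 0.892).

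In AE17 tumors the widest site difference was that of Tgfa, with a log2 fold change of 0.80 ± 0.29 (adjusted p = 0.0999) and all 8 IPL tumors above the SC median. DESeq2 gave 0.80 (adjusted p = 0.0497) and voom 0.84 (adjusted p = 0.0031). Within lane 1 it was 0.82 (adjusted p = 0.385), and edgeR called it without AE17 SC 1 (adjusted p = 0.0393). Egfr had 0.35 ± 0.15 (adjusted p = 0.165), and again all 8 IPL tumors were above the SC median. AE17 SC 8 was the lowest tumor of its group for Egfr, Erbb3, Areg and Tgfa, and the highest for Hgf. Ereg had -0.41 ± 0.20 (adjusted p = 0.204), Hgf -0.17 ± 0.12 (adjusted p = 0.383), Met 0.18 ± 0.11 (adjusted p = 0.302), Erbb3 0.27 ± 0.17 (adjusted p = 0.339), Areg 0.10 ± 0.17 (adjusted p = 0.75) and Erbb2 0.05 ± 0.07 (adjusted p = 0.667).

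**Figure D4:**
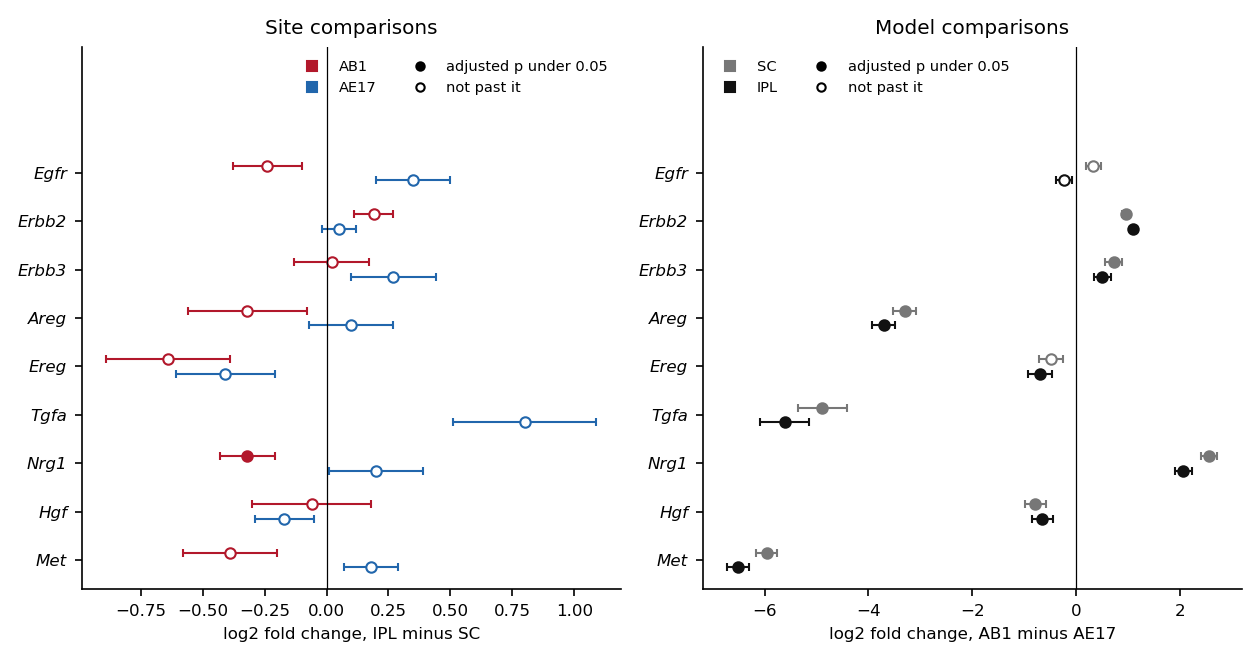
Log2 fold changes (horizontal axes, ± SE) of the 9 genes between the sites within each model (left, IPL minus SC, AB1 and AE17) and between the models at each site (right, AB1 minus AE17, SC and IPL), with filled points for an adjusted p under 0.05. At the left only Nrg1 in AB1 is filled, at -0.32, and at the right Met, Tgfa and Areg lie furthest to the left and Nrg1 furthest to the right.

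Whether the site difference itself differed between the models was tested as an interaction over all 32 tumors. Of the 9 genes 0 passed, beside 20.5% of the 15681 genes tested, 3 had an unadjusted p under 0.05 (32.7% of all genes), and DESeq2 and voom called 1 each (19.1% and 29.2%). Egfr came closest, with an interaction of -0.58 ± 0.22 on the log2 scale (AB1 minus AE17, adjusted p = 0.0557). It was called in 7 of 32 fits that left out 1 tumor (AB1 IPL 2 or 3, AB1 SC 3 or 4, AE17 IPL 8, or AE17 SC 1 or 2), with an adjusted p from 0.0269 to 0.0983 over the 32 fits. Met had -0.55 ± 0.23 (adjusted p = 0.092) and Nrg1 -0.50 ± 0.22 (adjusted p = 0.102). Without AB1 IPL 2, AB1 IPL 4 and AE17 IPL 5 Met was called, at -0.39 (adjusted p = 0.0417).

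The wider pathway was read from 6 lists with 57 genes, of which 47 had a row. Between the sites, 8 of 41 listed genes tested were called in AB1 (19.5%) and 3 of 40 in AE17 (7.5%), close to the 23% and 5.73% of all genes. Over all genes, calls in AB1 fell from 3374 to 386 with the lane in the fit, to 166 within lane 3 and to 236 with tissue scores. The AB1 calls of listed genes named below come from the fit without lane or tissue scores. The median log2 fold change of the listed genes was -0.04 in AB1 and 0.07 in AE17, against 0.0 over all genes. Between the models, 27 of 41 were called in SC tumors (65.9%, beside 58.3% of all genes tested) and 32 of 41 in IPL tumors (78.0%, beside 63.4%).

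The other ErbB receptors and ligands, a list of 7 genes, were scarce. Erbb4, Epgn and Nrg3 had rows and did not pass the filter in any comparison of the models, and the 4 that did, Egf, Btc, Nrg2 and Nrg4, had group means between 0.248 and 5.98 CPM. Among them 0 of 4 tested were called between the sites in AB1, beside 23% of all genes tested. In AE17 Egf alone of 3 tested was called, beside 5.73%. Egf, the epidermal growth factor itself, had a log2 fold change of -0.92 ± 0.18 (adjusted p = 0.0124), with means of 1.46 ± 0.284 CPM in AE17 IPL and 2.77 ± 0.729 CPM in AE17 SC tumors (SD, n = 8 each). Within 1 lane 0 of 14668 genes were called between the sites in AE17, so that this call and those of Mst1 and Ccnd1 below were lost there. The interaction of model and site for Egf was 1.12 ± 0.27 (adjusted p = 0.00438).

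Of the 6 sheddases and their partners, 0 of 6 tested were called between the sites in AE17, beside 5.73% of all genes tested. In AB1 1 of 6 was called, beside 23%. This was Rhbdf2, an inactive rhomboid that carries ADAM17 to the cell surface, with a log2 fold change of -0.34 ± 0.08 (adjusted p = 0.00498) and an interaction of -0.89 ± 0.20 (adjusted p = 0.00225). Between the models in IPL tumors all 6 were called, beside 63.4% of all genes tested. Adam10, Adam17, Adam9, Adam12 and Rhbdf2 were higher in AE17, and Rhbdf1 was higher in AB1. In SC tumors 3 of 6 were called, beside 58.3%.

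The list around HGF activation and the related MSP-RON axis had 9 of 10 genes with a row and 7 tested. In AB1 3 of 7 were called between the sites, beside 23% of all genes tested. Mst1r, the RON receptor, was higher in IPL tumors (log2 fold change 1.16 ± 0.24, adjusted p = 0.00208), as was the plasminogen activator Plat (0.72 ± 0.12, adjusted p = 0.000383), while St14, the membrane protease matriptase that can activate HGF, was lower (-0.85 ± 0.22, adjusted p = 0.00888). In AE17 1 of 7 was called, beside 5.73%. Mst1, the ligand of RON, was higher in IPL tumors (1.31 ± 0.30, adjusted p = 0.0222). The interaction of model and site was called for 4 of 7, beside 20.5% of all genes tested. It was -1.8 ± 0.39 for St14 (adjusted p = 0.00188), -1.44 ± 0.30 for Mst1 (adjusted p = 0.00146), 0.55 ± 0.15 for Plat (adjusted p = 0.0109) and 1.11 ± 0.38 for Mst1r (adjusted p = 0.0356).

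Plat was named after its values were seen, as were Spint1, Spint2, Errfi1, Lrig1 and Dusp5 below. Between the models 6 of 7 of this list were called in SC tumors, 3 of them higher in AB1, beside 58.3% of all genes tested. In IPL tumors 5 of 7 were called, 2 of them higher in AB1, beside 63.4%. The widest difference was that of Spint1, which encodes an inhibitor of the proteases that activate HGF. Its mean was 21.8 CPM in AE17 SC and 22.9 CPM in AE17 IPL tumors, against 0.623 and 0.482 CPM in AB1 SC and AB1 IPL tumors. The log2 fold change (AB1 minus AE17) was -5.11 ± 0.31 in SC tumors (adjusted p = 2.86e-15) and -5.55 ± 0.32 in IPL tumors (adjusted p = 6.18e-16). Mst1 went the other way, at 3.20 ± 0.23 in SC tumors (adjusted p = 1.66e-13). Spint2 was also higher in AB1 SC tumors (0.76 ± 0.28, adjusted p = 0.0201) and was not called in IPL tumors (0.21 ± 0.28, adjusted p = 0.531). St14 was higher in AE17, at -0.8 ± 0.27 in SC tumors (adjusted p = 0.0134) and -2.6 ± 0.29 in IPL tumors (adjusted p = 2.69e-09).

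Of the receptor adaptors, 0 of 6 tested were called between the sites in either model. Over all genes tested the shares were 23% in AB1 and 5.73% in AE17. Between the models 5 of 6 adaptors were called in SC tumors, beside 58.3% of all genes tested, and 5 of 6 in IPL tumors, beside 63.4%. Of the receptor inhibitors 5 of 9 had a row. Between the sites 0 of 5 were called in AE17, beside 5.73% of all genes tested. Cbl, a ubiquitin ligase that removes active receptors, was the only 1 of 5 called in AB1, beside 23%. Its log2 fold change (IPL minus SC) was -0.29 ± 0.09 (adjusted p = 0.0295). Between the models 2 of 5 were called in SC tumors, beside 58.3% of all genes tested, and 3 of 5 in IPL tumors, beside 63.4%. Errfi1, which encodes the feedback inhibitor MIG6 of ErbB kinases, and Lrig1, which lowers ErbB receptor levels, were higher in AB1 at both sites. Cbl was higher in AE17 IPL tumors, with a log2 fold change (AB1 minus AE17) of -0.3 ± 0.09 (adjusted p = 0.0048). Errfi1 had means of 377 CPM in AB1 SC and 155 CPM in AE17 SC tumors, with a log2 fold change of 1.28 ± 0.11 (adjusted p = 2.87e-11). Lrig1 had means of 229 and 129 CPM, with a log2 fold change of 0.83 ± 0.08 (adjusted p = 4.36e-10).

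Of the ERK feedback and target genes 13 of 17 had a row and all 13 were tested. In AB1 3 of 13 were called between the sites, beside 23% of all genes tested. Spry1, a feedback inhibitor of receptor tyrosine kinases, was higher in IPL tumors (log2 fold change 0.91 ± 0.26, adjusted p = 0.0159). The immediate early gene Egr1 was lower (-0.78 ± 0.24, adjusted p = 0.0248), and so was the ERK phosphatase gene Dusp5 (-0.46 ± 0.14, adjusted p = 0.0267). In AE17 1 of 13 was called, beside 5.73%. This was Ccnd1, which encodes cyclin D1 and was lower in IPL tumors (-0.49 ± 0.13, adjusted p = 0.0349). Between the models 10 of 13 were called in SC tumors, 3 of them higher in AB1 and 7 higher in AE17, and 10 of 13 in IPL tumors, with the same split. Over all genes tested 58.3% and 63.4% were called, and 29.7% and 31.8% were called higher in AE17.

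Within groups, each gene followed a few others from tumor to tumor. Pearson correlations of log2 CPM were taken over the 32 tumors after the 4 group means were removed, across 13920 genes of at least 1 CPM. They are given without a test, and the points share depth, lane and tissue content. Met was most like Slmap, Rsl1d1 and AI314180 (r = 0.94 for each), and r fell to between 0.85 and 0.89 without AB1 IPL 4. Hgf was most like Tmem167 and Fgfr1op2 (0.89 each), and here r fell to 0.71 and 0.74 without that tumor. Both lists thus drew on AB1 IPL 4, which was the lowest tumor of its group for Egfr, Ereg, Hgf and Met and the highest for Erbb2 and Erbb3.

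For the ErbB receptors the closest genes were Map3k8, Arhgap26 and Pros1 for Egfr (r = 0.85, 0.84 and 0.84), Phldb1, Rab11fip3 and Dvl2 for Erbb2 (0.78, 0.76 and 0.74), and Prkcq, Camta2 and Prrt1 for Erbb3 (0.83, 0.82 and 0.79). For the ligands they were Map3k6, Cd44 and Tmem199 for Areg (0.75, 0.75 and 0.72), Sestd1, Tmem65 and Sms for Ereg (0.89, 0.87 and 0.85), and Aqp3, Sh3bp5 and Cmbl for Tgfa (0.81, 0.81 and 0.80). Without AB1 IPL 4 the values fell to 0.84, 0.81 and 0.79 for Ereg and to 0.71, 0.73 and 0.72 for Erbb2. The closest to Nrg1 were Rasal3, Tbc1d9 and Icos (0.77, 0.77 and 0.76). That likeness was much looser in AB1 tumors, where r lay between 0.36 and 0.45, than in AE17 tumors, where it lay between 0.83 and 0.89, although Nrg1 itself was several times higher in AB1. The difference between these correlations was not tested.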

How the data were processed

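Counts of reads per gene were deposited by the authors for 32 libraries (polyA RNA, 50 bp single-end reads), made with bcl2fastq 1.8.4, HISAT2 2.0.4 and summarizeOverlaps. The annotation release and strand setting are not given in the sources used here. Pleural and flank tumors were compared within each model, the models within each site, and the interaction over all tumors. Each comparison used edgeR 4.0.16 quasi-likelihood tests in R 4.3.3 on the counts (filterByExpr, TMM, two-sided, Benjamini-Hochberg adjustment over all genes tested, threshold 0.05). The models and the interaction were fitted over all 32 tumors. Mice of a model received cells of 1 culture, so p-values measure the spread between mice and not between cultures. Genes were placed with GENCODE M21 (39495 of 39676 matched), and CPM used TMM factors. Total counts ran from 15432258 to 20649645 with a median of 17230191. The 112 pairs of libraries within groups differed beyond counting noise (chi-square per degree of freedom 5.92 to 148), so each was used as 1 sample. Alternatives were DESeq2 1.42.0, voom (limma 3.58.1), other size factors, no filter, the replicate number as a block, lane, tissue scores, only the 16 mice compared (models) or all 32 (sites), and leaving out each tumor. The 3 tumors least like their groups were left out together as a choice made after seeing the data. The replicate numbers were not taken as pairs, since the correlation of same-numbered tumors was over 0.1 in 0 of 8 pairs in AB1 (mean -0.12) and in 5 of 8 in AE17 (mean 0.07).

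The 10 genes and all lists were chosen with earlier results of these data known. Of each pathway list, up to 3 genes with the largest site difference among those called were named, and for each of the 9 genes the 3 with the highest correlation, of which 1 is not reported here. Any other gene was named with its values in view. Scripts were tested on simulated data.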

Additional observations from a re-analysis of the deposited data

Results flagged for a closer look

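In 5 of 36 groups of 8 tumors (9 genes in 4 groups), the lowest or highest tumor lay far from the other 7 by Dixon's test on log2 CPM, and chance alone gives about 1 in 20. On the CPM scale the same test marked 5 groups too, of which both Erbb3 groups below were shared while it marked Erbb2 in AB1 IPL 4, Nrg1 in AB1 IPL 5 and Hgf in AE17 IPL 5 in place of the values of Egfr, Hgf and Met below. AE17 SC 8 had 12.9 CPM of Egfr, with the next lowest tumor at 25.3 CPM, and 1.7 CPM of Erbb3, with the next lowest at 3.15 CPM. AB1 IPL 4 had 5.31 CPM of Hgf, with the next lowest tumor at 16.3 CPM, and 24.2 CPM of Met, with the next lowest at 54.6 CPM. AB1 SC 8 had 8.2 CPM of Erbb3, with the second highest tumor at 5.65 CPM. AB1 IPL 4 also had the lowest summed mast cell markers of its group, 1.73 CPM, and a skeletal muscle sum of 4066 CPM. AE17 SC 8 had the lowest summed mesothelial markers of its group, 114 CPM, and the lowest lung epithelium sum, 13.9 CPM. In that group 4 of the 6 mesothelial and 4 of the 6 lung markers had a median of 3 counts or less. AE17 SC 8 was the lowest as well for the sums of macrophage (1163 CPM), neutrophil (17.7 CPM) and mast cell markers (38.5 CPM). The part of these markers in the values was not tested.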

How the results depend on the processing

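Of 1513 values of the 9 genes under the alternatives, 1457 kept their direction and their side of the threshold or changed sign only while uncalled, 21 lost a call, 35 gained one and 0 called values changed sign. Between the sites in AB1, where 1 gene was called, the count was 0 without the filter, with the replicate block, with the lane, within 1 lane, with tissue scores and at an adjusted p of 0.01. It was 2 in the fit of all 32 mice, where Erbb2 (adjusted p = 0.0262) and Ereg (adjusted p = 0.045) took the place of Nrg1. Voom also called 1, Ereg (adjusted p = 0.0243) in place of Nrg1 (adjusted p = 0.0615). In AE17, where 0 were called, DESeq2 called 1 (Tgfa) and voom 2 (Tgfa and Ereg). For the interaction, with 0 called, the count was 1 with DESeq2 (Egfr), voom (Met), the replicate block (Egfr, adjusted p = 0.0463) and without the 3 tumors least like their groups (Met). Between the models in SC tumors the replicate block called Egfr (0.36, adjusted p = 0.046). Between the models in IPL tumors, 8 became 5 with the lane, which lost Erbb3, Ereg and Hgf. Leaving out 1 tumor gave 0 to 2 calls in AB1, 0 to 1 in AE17, 0 to 1 for the interaction, 7 to 9 between models in SC tumors and 8 in IPL tumors. The cause of these changes was not tested.

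Over all genes, calls in AB1 went from 3374 to 386 with the lane, 166 within 1 lane and 236 with tissue scores. In AE17 they went from 840 to 1774 (DESeq2), 3925 (voom), 550 (no filter), 1 (lane), 0 (within 1 lane), 161 (tissue scores) and 1324 (all 32 mice), and ran from 316 to 2066 with 1 tumor left out. With the lane the interaction went from 3212 to 117, and the models from 9138 to 5268 (SC) and from 9940 to 5008 (IPL). With the replicate block the calls in AB1 were 2263. Replicate numbers marked no shared animal. Within a lane the models could not be compared. Depth limited Tgfa in AB1, which had 0 to 30 counts per tumor.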
